A study of Mus musculus with 2 samples.

Results

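The neural POU factors examined here were 9 transcription factor genes, Pou2f1, Pou3f1, Pou3f2, Pou3f3, Pou3f4, Pou4f1, Pou4f2, Pou4f3 and Pou6f1, taken by symbol from an mm10 expression table of 45777 genes. All 9 were listed. They were compared between 1 RNA-seq library from E14 teratomas and 1 from E14-Sox2TA/WT teratomas. E14 is a mouse embryonic stem cell (ESC) line with wild-type Sox2. E14-Sox2TA/WT is a derivative, expanded from a single edited cell, in which CRISPR/Cas9 gave 1 Sox2 allele the T258A substitution (threonine 258 to alanine, a residue that carries O-GlcNAc) and left the other allele wild type. ESCs of either line were inoculated under the skin of BALB/c-nu mice, 3 mice per group, and the tumours were taken at day 14. Nude mice lack mature T cells but keep macrophages and other host cells, which can add RNA to a tumour. The sources used here do not say whether a library came from 1 tumour or from pooled tumours, and the RNA extraction label speaks of the ESC line, whereas the title and tissue labels say teratoma. With 1 library per group no p-value was computed.

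POU proteins bind DNA through a POU-specific domain joined by a linker to a POU homeodomain, and many recognise an octamer element. Sox2, an HMG-box factor, binds beside a POU protein on composite sites: with Oct4 (Pou5f1) in ESCs and with class III POU proteins at enhancers of neural progenitor genes. The class III genes are Pou3f1 (Oct6), Pou3f2 (Brn2), Pou3f3 (Brn1) and Pou3f4 (Brn4), which act in neural progenitors and in several kinds of neurons. The class IV genes Pou4f1, Pou4f2 and Pou4f3 (Brn3a, Brn3b and Brn3c) serve sensory neurons, retinal ganglion cells and inner ear hair cells. Pou2f1 (Oct1) is expressed in almost all cells, and Pou6f1 (Brn5) is most abundant in brain.

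The libraries held 50529171 (E14) and 49030281 (E14-Sox2TA/WT) reads on genes, and all values below are given for E14 first. The teratoma label was checked against markers of other tissues. Cartilage Col2a1 stood at 58.0 TPM (the share of transcripts, corrected for transcript length and scaled to a fixed sum) for E14 and 74.8 TPM for E14-Sox2TA/WT, and endodermal Afp at 0.614 and 151 TPM. Acan, also of cartilage, was near the floor at 0.252 and 1.01 TPM (47 and 207 reads). Of the genes named here, the check for E14 therefore rests on Col2a1. Sox2 itself stood at 246 TPM for E14 and 130 TPM for E14-Sox2TA/WT, which is 1.89-fold lower. Counts per gene do not show the edited codon, so they do not check the genotype.

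The class III proteins are close relatives, so the sequences of the recognition helix are shown to let a reader see how far reads of 1 member can be told from those of another. Proteins translated from the annotated transcripts shared 62.8% to 73.8% of aligned residues between class III members, and 74.8% to 79.9% between class IV members. The following 60 coding bases (GRCm38, 5′ to 3′ on the gene's strand) encode the recognition helix of the POU homeodomain and the residues beside it. Capitals mark bases that are unlike Pou3f3.
Pou3f3: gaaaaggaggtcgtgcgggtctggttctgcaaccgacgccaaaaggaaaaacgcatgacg
Pou3f1: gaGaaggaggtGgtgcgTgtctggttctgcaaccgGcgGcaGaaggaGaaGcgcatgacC
Pou3f2: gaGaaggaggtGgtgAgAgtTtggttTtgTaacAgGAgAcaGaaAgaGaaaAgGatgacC
Pou3f4: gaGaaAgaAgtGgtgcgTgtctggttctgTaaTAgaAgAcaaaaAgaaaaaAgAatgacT
Pou4f1: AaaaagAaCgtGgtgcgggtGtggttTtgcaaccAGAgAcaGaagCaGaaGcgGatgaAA
Pou4f2: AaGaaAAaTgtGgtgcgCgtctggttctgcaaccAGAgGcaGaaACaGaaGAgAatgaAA
Pou3f1 was unlike Pou3f3 at 9 of these 60 bases, Pou3f4 at 14 and Pou3f2 at 17, and Pou4f2 at 20. Across whole transcripts, no pair of class III genes shared an identical stretch of 50 nt. Pou4f1 and Pou4f2 shared 2 identical runs, of 50 and 71 nt, so some reads of those genes could have been assigned to either.

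The upstream bases of the 4 members that were lower by the rule given in the next paragraph are shown because these genes moved together. They come from RefSeq promoters (GRCm38.p6), cut to the bases that lie outside the annotated gene, which left 250 bases for Pou3f3 (chr1:42695518-42695767, plus strand) and Pou3f2 (chr4:22488367-22488616, minus strand), 151 for Pou3f4 (chrX:110814129-110814279, plus strand) and 173 for Pou6f1 (chr15:100600062-100600234, minus strand). Capitals mark a match to the octamer ATGCAAAT, its first 7 bases ATGCAAA, or the SOX letters ACAAAG or ACAATG, searched on both strands over all 250 bases. The 7-base motif lies inside the octamer, so a match to the octamer counts for both.
Pou3f3: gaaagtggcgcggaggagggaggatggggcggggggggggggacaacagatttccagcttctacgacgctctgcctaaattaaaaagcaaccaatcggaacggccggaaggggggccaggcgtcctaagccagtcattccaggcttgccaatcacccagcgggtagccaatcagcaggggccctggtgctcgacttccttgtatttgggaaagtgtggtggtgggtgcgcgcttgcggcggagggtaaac
Pou3f2: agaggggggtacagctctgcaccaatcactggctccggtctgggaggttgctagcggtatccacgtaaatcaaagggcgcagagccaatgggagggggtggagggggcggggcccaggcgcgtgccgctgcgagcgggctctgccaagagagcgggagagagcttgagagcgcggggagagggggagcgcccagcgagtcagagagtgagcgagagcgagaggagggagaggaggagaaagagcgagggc
Pou3f4: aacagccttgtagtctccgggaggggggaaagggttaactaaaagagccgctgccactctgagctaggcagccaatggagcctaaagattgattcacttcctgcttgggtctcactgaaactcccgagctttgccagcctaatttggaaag
Pou6f1: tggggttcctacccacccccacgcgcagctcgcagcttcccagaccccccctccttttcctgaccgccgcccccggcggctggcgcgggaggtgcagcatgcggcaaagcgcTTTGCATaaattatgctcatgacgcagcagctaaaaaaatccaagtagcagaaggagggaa
The only match in these 4 was TTTGCAT, the 7-base motif on the other strand, in Pou6f1, starting 138 bases before the start. Of all 32851 promoters, 4.12% held that motif, 1.60% the octamer, 16.5% ACAAAG and 10.7% ACAATG. Among the 9 promoters of the 7 members matched, no other gene than Pou2f1 held the SOX letters. They lay in 2 of its 3 promoters, both at internal starts. A match is a description of letters and not a binding site.

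Of the 9 neural POU factors, 8 were at a lower level for E14-Sox2TA/WT and 1, Pou4f2, at a higher level. The 8 include Pou4f3, with only 10 and 4 reads. Of all genes that reached a TPM of 1 in either library, 52.5% were at a lower level, and 59.0% of those that reached 10. A gene was called when its TPM differed more than 2-fold and reached 10 in 1 or both libraries. This rule follows the wording of the study's methods, but it called more genes in each direction than the study reports for these teratomas. The calls given here are therefore not the study's own, and why the counts differ was not tested. The TPM filter left 6 members, of which 4 were lower (Pou3f3, Pou3f4, Pou3f2 and Pou6f1), 0 were higher and 2 (Pou3f1 and Pou2f1) differed by less than 2-fold. Among all 11578 genes that passed the TPM filter, 18.7% were lower and 10.8% were higher by this rule. The summed level of the 9 members was 140 TPM for E14 and 60.2 TPM for E14-Sox2TA/WT, 2.33-fold lower. In bulk tumour RNA, fewer cells of a type and less RNA per cell cannot be told apart.

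**Figure D1:**
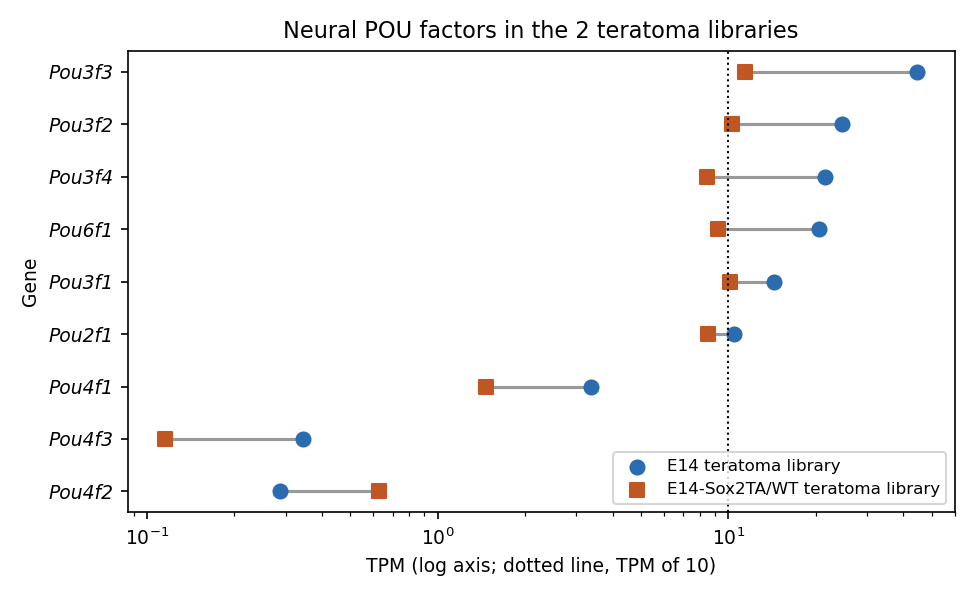
Level of each neural POU factor in TPM (log axis) for E14 (circles) and the E14-Sox2TA/WT library (squares), 1 library per group and therefore no error bars, with a dotted line at a TPM of 10. Pou3f3 has the widest gap among genes above 10 TPM, from 44.6 to 11.4 TPM, and Pou4f2 alone is higher for E14-Sox2TA/WT.

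Pou3f3 had the highest level of the 9 members in both libraries. The gene (identifier 18993) is a single exon on chromosome 1, from 42695768 to 42700210 on the plus strand, and in the developing cortex its protein acts with Pou3f2 in upper-layer neurons. It had 4769 reads and 44.6 TPM for E14, and 1359 reads and 11.4 TPM for E14-Sox2TA/WT. The level was 3.92-fold lower, with a 95% counting interval of 3.69 to 4.17. Intervals of this kind come from the exact binomial (Clopper-Pearson) interval of a gene's reads in either library. Only counting error is covered, not the difference between tumours, and reads without molecular identifiers are not independent molecules. Of all genes that passed the TPM filter, 5.25% had a more negative log2 ratio than Pou3f3.

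Pou3f4, which is needed in the inner ear and is expressed in the neural tube, is a single exon on chromosome X (identifier 18994, 110814379 to 110819108, plus strand). It had 2454 reads and 21.6 TPM for E14 and 1073 reads and 8.44 TPM for E14-Sox2TA/WT. The level was 2.55-fold lower (2.38 to 2.75). Pou3f4 was in rank 3 of the members for E14 and in rank 6 for E14-Sox2TA/WT.

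Pou3f2, a factor of neural progenitors and of hypothalamic neurosecretory neurons that is also used to turn fibroblasts into neurons, is a single exon on chromosome 4 (identifier 18992, 22482095 to 22488366, minus strand). It had 3712 reads and 24.6 TPM for E14 and 1733 reads and 10.3 TPM for E14-Sox2TA/WT, 2.39-fold lower (2.26 to 2.53).

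Pou3f1 was the class III gene with the smallest difference. It acts in the epiblast, in neural tissue and in the Schwann cells that myelinate peripheral nerves, and is a single exon on chromosome 4 (identifier 18991, 124657646 to 124660655, plus strand). It had 1037 reads and 14.3 TPM for E14 and 819 reads and 10.1 TPM for E14-Sox2TA/WT. The level was 1.41-fold lower (1.29 to 1.55), inside the 2-fold limit. A noncoding gene, Gm2164, overlaps Pou3f1 on the opposite strand and had 163 and 82 reads. Whether the authors' counting used strand is not given in the sources used here, so reads in the overlap could belong to either gene.

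The class III genes together stood at 105 TPM for E14 and 40.2 TPM for E14-Sox2TA/WT, 2.61-fold lower, and at 2.096-fold lower when Pou3f3 was left out. The class accounted for 75.0% of the summed member level for E14 and 66.8% for E14-Sox2TA/WT. Its members were unequal for E14, where the highest level was 3.12 times the lowest. In the E14-Sox2TA/WT library that ratio was 1.35. Pou3f3 made up 42.5% of the class III level for E14 and 28.3% for E14-Sox2TA/WT. The share of Pou3f1 was 13.6% and 25.2%. The shares of Pou3f2 (23.4% and 25.6%) and Pou3f4 (20.5% and 21.0%) differed less.

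**Figure D2:**
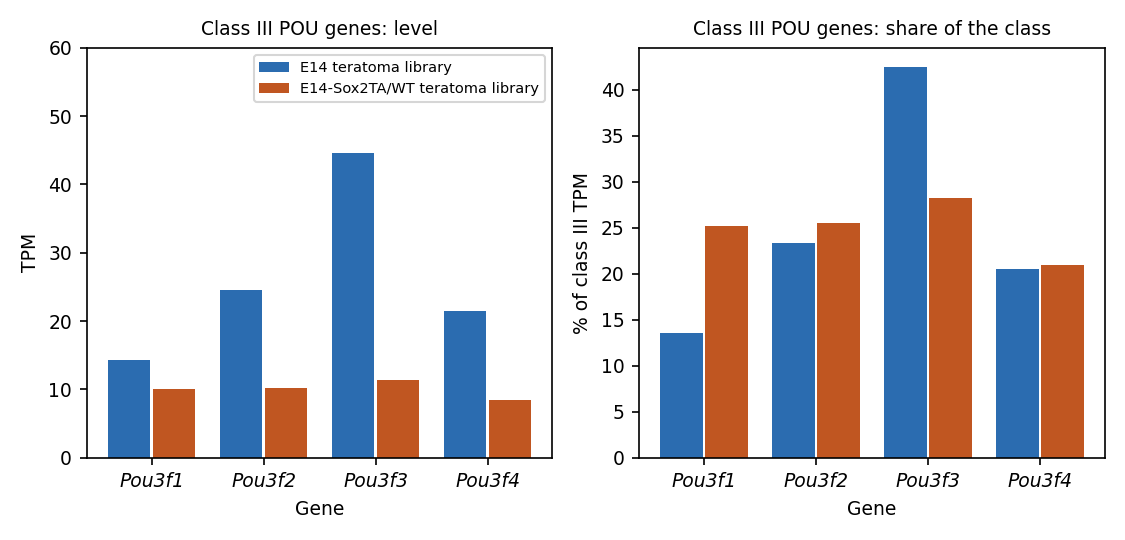
Level in TPM (left) and share of the summed class III TPM in percent (right) of the 4 class III genes in the E14 and E14-Sox2TA/WT libraries, 1 library per bar. The bars of the E14 library run from 14.3 to 44.6 TPM, and those of the E14-Sox2TA/WT library from 8.44 to 11.4 TPM.

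These comparisons within the class do not depend on how the libraries were scaled, because a scaling factor cancels between genes of the same library. By read counts, Pou3f3 was 2.77 times further below its E14 level than Pou3f1 (95% counting interval 2.48 to 3.10). It was also 1.53 times further below than Pou3f4 (1.40 to 1.69). Pou3f2 and Pou3f4 differed from each other by a ratio of 0.937 (0.854 to 1.03), an interval that includes 1.

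In the E14 library the order of the levels was Pou3f3, Pou3f2, Pou3f4, Pou6f1, Pou3f1, Pou2f1 and then the class IV genes. Among the first 6, the counting intervals of neighbours overlapped only for Pou3f4 (20.7 to 22.4 TPM) and Pou6f1 (19.8 to 21.4 TPM). In the E14-Sox2TA/WT library the order was Pou3f3, Pou3f2, Pou3f1, Pou6f1, Pou2f1 and Pou3f4. There the intervals of Pou3f3 and Pou3f2 met at 10.8 TPM, and each later pair of neighbours overlapped.

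Pou6f1, a brain POU gene of class VI, has 6 to 11 exons by transcript and lies on chromosome 15 (identifier 19009, 100575318 to 100600061, minus strand). It had 2477 reads and 20.6 TPM for E14 and 1234 reads and 9.22 TPM for E14-Sox2TA/WT, 2.23-fold lower (2.08 to 2.39). Pou6f1 was close to the limit of the rule. By FPKM, which unlike TPM is not rescaled to a common sum per library, it was 1.94-fold lower and no longer counted as lower. The median log2 ratio of genes on chromosome 15 was 0.41 above that of all genes.

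Pou2f1, the widely expressed class II gene, differed least among the members that reached a TPM of 10. It lies on chromosome 1 (identifier 18986, 165865150 to 166002749, minus strand). It had 3225 reads and 10.4 TPM for E14 and 2963 reads and 8.54 TPM for E14-Sox2TA/WT. The level was 1.22-fold lower (1.16 to 1.28) by TPM and 1.06-fold lower by FPKM. The log2 ratio of Pou2f1 was -0.26, beside a median of -0.18 over all genes that passed the TPM filter. Cd247, a T cell receptor gene that overlaps it on the opposite strand, had 94 and 73 reads.

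The class IV genes were at low levels, and none reached a TPM of 10. Pou4f1, a factor of sensory neurons, lies on chromosome 14 (identifier 18996, 104461675 to 104468118, minus strand). It had 397 reads and 3.36 TPM for E14 and 203 reads and 1.47 TPM for E14-Sox2TA/WT, 2.30-fold lower (1.93 to 2.73). Pou4f3, a hair cell factor (identifier 18998, chromosome 18, 42394597 to 42396093, plus strand), had 10 reads and 4 reads. The ratio for Pou4f3 was 2.99-fold lower with an interval of 0.862 to 13.0, so a difference was not detectable at this depth.

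Pou4f2, a factor of retinal ganglion cells, went the other way. It lies on chromosome 8 (identifier 18997, 78433009 to 78436647, minus strand), with 23 reads and 0.288 TPM for E14 and 55 reads and 0.628 TPM for E14-Sox2TA/WT. The level was 2.18-fold higher (1.32 to 3.72). Its share of class IV reads was 5.35% for E14 (95% Clopper-Pearson interval 3.42 to 7.92) and 21.0% for E14-Sox2TA/WT (16.2 to 26.4). The share of Pou4f1 was 92.3% (89.4 to 94.7) and 77.5% (71.9 to 82.4). The median log2 ratio of genes on chromosome 8 was 0.43 below that of all genes (a difference of -0.43), whereas Pou4f2 was above it.

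**Figure D3:**
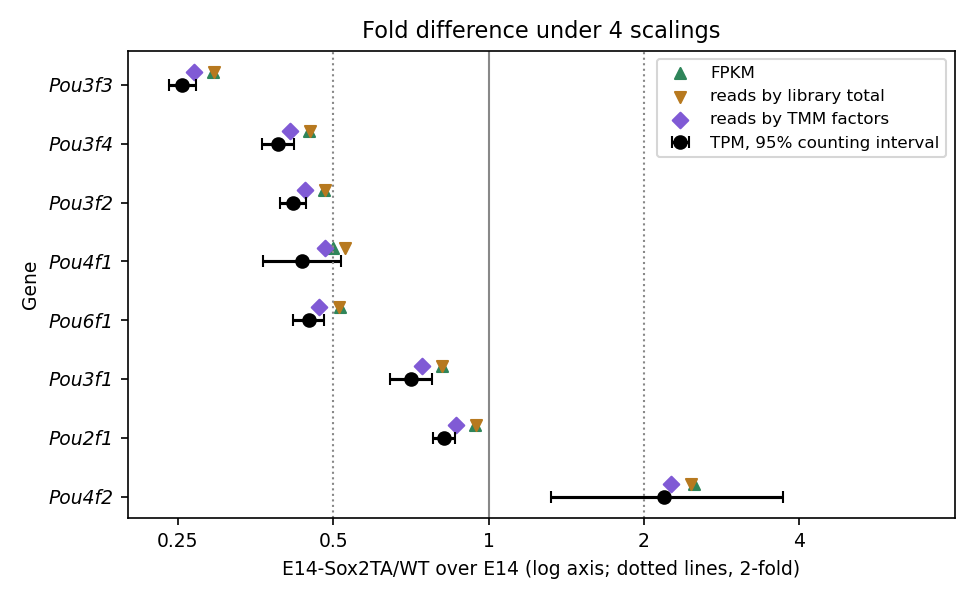
Level for E14-Sox2TA/WT over that for E14 (log axis) for the 8 members with 20 reads or more in each library. Black points are TPM ratios with 95% counting intervals, coloured marks are ratios by FPKM and by reads scaled by the library total or by TMM factors (edgeR's trimmed mean scaling), and dotted lines mark 2-fold. Pou3f3 lies lowest at 0.255 and Pou4f2 is the single member above 1, at 2.18.

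The difference of the group was set beside all genes. Log2 ratios were taken on TPM + 1. Over the 7 members that reached a TPM of 1 in either library their median was -1.08, and -0.058 over the 18558 genes that met the same limit. All 7 of these members were lower, as were 52.5% of the 18558 genes. By TPM the median of the genes that passed the filter at 10 was shifted to -0.18, and by FPKM it was 0.0080. After centring on the median by TPM, the log2 ratios of the 6 members that passed were -1.70 for Pou3f3, -1.07 for Pou3f4, -0.9998 for Pou3f2, -0.89 for Pou6f1, -0.28 for Pou3f1 and -0.08 for Pou2f1.

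**Figure D4:**
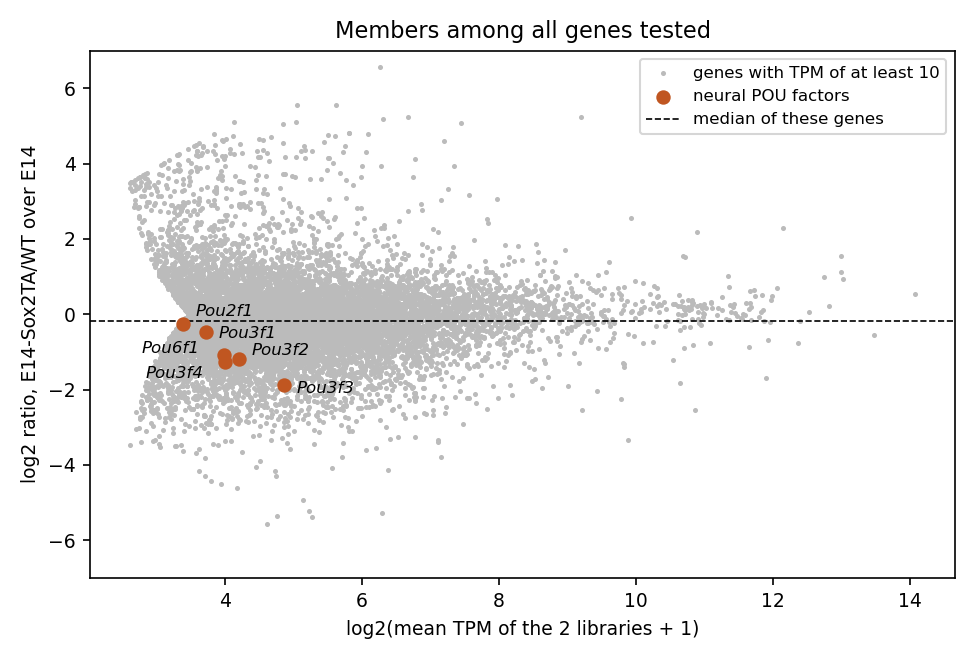
Each grey point is 1 of the 11578 genes that reached a TPM of 10, with its mean level on the x axis (log2 of TPM + 1) and its log2 ratio of the E14-Sox2TA/WT over the E14 library on the y axis; the dashed line is their median, -0.18. Pou3f3 lies lowest of the 6 members at -1.88, and Pou2f1 lies next to the median at -0.26.

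By the distance between log2 levels in the 2 libraries, the genes most like each member were Dpf1 and 2610005L07Rik for Pou3f3, Dyrk1b and Elk1 for Pou3f2, Fam53b and Rab11fip4 for Pou3f4, Wdr59 and Pld2 for Pou6f1, Fam210a and Ggcx for Pou3f1, and E2f8 and Taf3 for Pou2f1. Dpf1, a neuronal subunit of the BAF chromatin remodelling complex, stood at 45.3 TPM for E14 and 11.0 TPM for E14-Sox2TA/WT. With 2 libraries this likeness rests on 2 values per gene.

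The neighbouring genes of the members were read for comparison. Pantr1, a noncoding RNA gene that begins 926 bp from Pou3f3 on the opposite strand, stood at 105 TPM for E14 and 68.3 TPM for E14-Sox2TA/WT. It was 1.54-fold lower, beside 3.92-fold for Pou3f3. Pantr2, on the other side of Pou3f3, had 41 and 34 reads. Near Pou3f2, Fbxl4 stood at 13.9 and 10.9 TPM, and Gm30731 had 34 and 35 reads. Next to Pou3f1, Utp11 stood at 55.8 and 69.9 TPM, and next to Pou6f1, Tfcp2 stood at 23.6 and 22.8 TPM. Rnf219, beside Pou4f1, stood at 34.4 and 14.5 TPM and was the 1 neighbour that passed the rule, 2.38-fold lower. Of the remaining neighbours in the table, Ttc29 (288 and 352 reads) and Gm2225 (107 and 170 reads) lie beside Pou4f2 and Rbm27 (17.3 and 19.96 TPM) beside Pou4f3, while Cylc1 beside Pou3f4 and D130079A08Rik beside Pou4f1 had 0 reads in both libraries, which allows up to 3 reads in each.

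The other POU genes differed from the neural ones in direction and size. Pou5f1, the ESC partner of Sox2, stood at 19.0 TPM (621 reads) for E14 and 304 TPM (11054 reads) for E14-Sox2TA/WT, 15.98-fold higher (14.7 to 17.4). Pou2f2 stood at 13.1 and 2.78 TPM, 4.71-fold lower (4.30 to 5.16). Pou2f3, a factor of stratified epithelium and tuft cells, had 6 reads for E14 and 161 for E14-Sox2TA/WT. Pou5f2 had 4 and 6 reads, and Pou1f1, the pituitary factor, had 0 in both, which allows up to 3 reads in each. The 9 neural POU factors made up 80.6% of the summed TPM of all POU genes for E14 and 16.3% for E14-Sox2TA/WT. Pou5f1 alone made up 11.0% and 82.3%.

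The SoxB and SoxC genes, whose HMG proteins can pair with POU proteins, were lower for 5 of the 7 that passed the TPM filter and higher for 0. Their median log2 ratio was -1.39, beside -1.08 for the POU members. Sox1, a SoxB1 gene of neural progenitors, stood at 48.3 TPM for E14 and 9.55 TPM for E14-Sox2TA/WT, 5.06-fold lower (4.73 to 5.42). Sox2 was the most abundant of them. The level of Pou3f3 was 18.2% of that of Sox2 for E14 and 8.75% for E14-Sox2TA/WT. By reads, Pou3f3 was 2.07 times (1.94 to 2.22) further below its E14 level than Sox2, Pou3f4 1.35 times (1.25 to 1.46), Pou3f2 1.27 times (1.19 to 1.35) and Pou6f1 1.19 times (1.10 to 1.28). For Pou3f1 this ratio was 0.749 (0.680 to 0.825) and for Pou2f1 0.644 (0.608 to 0.681), so they lay less far below their E14 levels than Sox2 did. For Pou4f1 it was 1.16 (0.972 to 1.38), an interval that includes 1.

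Neural genes with enhancers or promoters that class III proteins bind were lower for 2 of the 4 that passed the filter. Fabp7, a radial glia gene whose promoter carries a POU site, stood at 2497 TPM for E14 and 708 TPM for E14-Sox2TA/WT, 3.53-fold lower (3.46 to 3.59). Of the factors used with Pou3f2 to make neurons, 4 of 4 that passed were lower, with a median log2 ratio of -2.45 over the list.

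Genes of the cell types in which the class III members work were read next. Upper-layer cortical genes were lower for 3 of 3 that passed. Cux1, a homeodomain gene also expressed outside the cortex, stood at 93.8 and 21.7 TPM, and Mdga1, a cell adhesion gene, at 15.3 and 2.71 TPM. Of the neurosecretory hypothalamus list, 2 of 2 that passed were lower. Arnt2, a partner of Sim1 in that tissue, stood at 70.0 and 13.1 TPM. The hormone genes themselves were near 0, with 0 and 3 reads for Avp, 0 and 14 for Oxt, and 9 and 14 for Crh. Schwann cell and myelin genes, linked to Pou3f1, were lower for 3 of 4 that passed, but over the 6 that reached a TPM of 1 the signs were divided, with 3 lower and 3 higher. Mbp, a myelin protein of central and peripheral glia that oligodendrocytes also make, stood at 112 and 27.4 TPM. Genes better known from Schwann cells were at higher levels, Pmp22 at 39.4 and 52.6 TPM, within 2-fold, Prx at 2.94 and 5.14 TPM and Egr2 at 0.691 and 1.67 TPM. Primed epiblast genes, also linked to Pou3f1, were higher for 2 of 4 that passed. Utf1, a chromatin factor of pluripotent cells, stood at 6.11 and 94.5 TPM. The others that passed were at lower levels within 2-fold, Otx2 at 45.3 and 36.4 TPM and Zic2 at 38.5 and 28.3 TPM. Over the 5 that reached a TPM of 1, 2 were at lower and 3 at higher levels.

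The tissues of the class IV genes gave a mixed picture. Sensory neuron genes were lower for 3 of 4 that passed and higher for 1. Over the 6 that reached a TPM of 1, 3 were at lower and 3 at higher levels. Ntrk2, the receptor of BDNF, which neurons and glia of the brain also express, stood at 42.3 and 8.96 TPM. Prph, an intermediate filament gene of peripheral neurons, was the gene called higher, at 5.67 and 23.0 TPM. Tlx3, a factor of sensory neurons, had 15 and 55 reads, and Runx1, which blood cells also express, had 371 and 926 reads. The retinal ganglion cell list was higher for 3 of 4 and lower for 1, but Thy1, its most abundant gene, is also made by many other cells, and stood at 9.80 and 56.2 TPM. Atoh7, the retinal progenitor gene that defines the lineage, had 4 reads in both libraries. Of the hair cell genes, 1 passed the filter, the motor protein gene Myo6 at 19.2 and 17.3 TPM, and Atoh1, which defines hair cells, had 4 and 11 reads. Myo7a, a hair cell myosin also made elsewhere, stood at 0.816 and 2.87 TPM.

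The cofactors of Pou2f1 and the subunits of the snRNA-activating complex, which Pou2f1 helps to recruit, were lower or higher by the rule for 0 of 5 that passed. Hcfc1, a cofactor of Pou2f1, stood at 60.3 and 41.9 TPM, and Snapc2, a subunit of that complex, at 54.4 and 28.9 TPM, 1.88-fold lower (1.75 to 2.02). Their median log2 ratio was -0.37, beside -0.26 for Pou2f1.

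**Figure D5:**
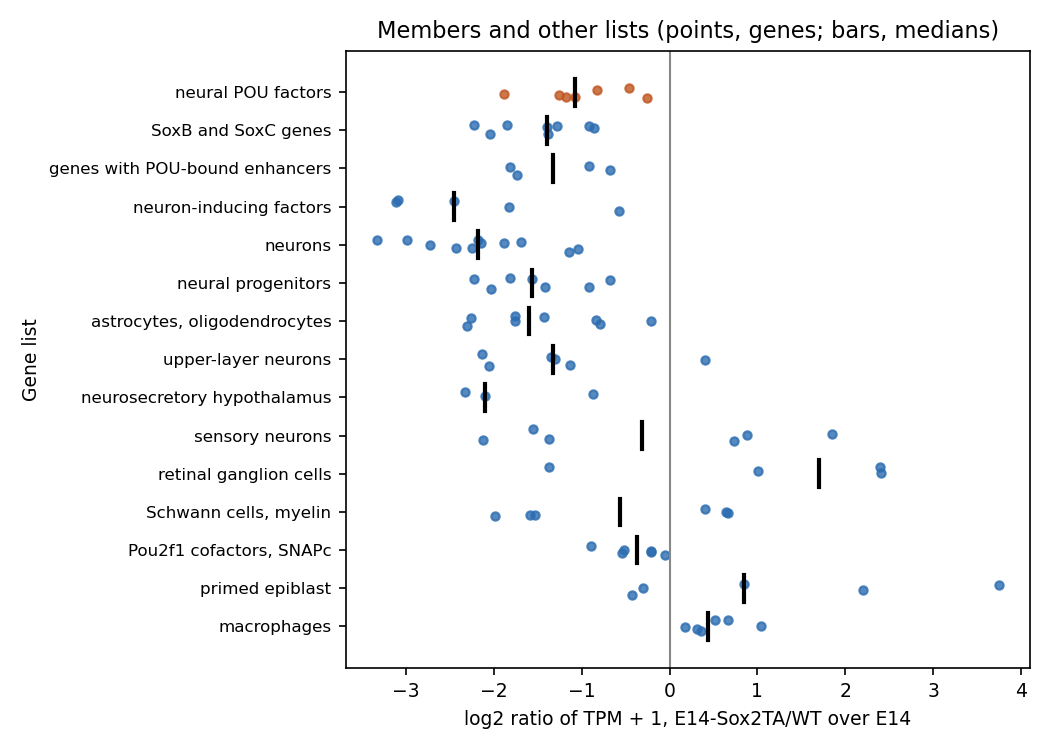
Log2 ratio of TPM + 1 (E14-Sox2TA/WT over E14) of single genes (points) that reached a TPM of 1 in 1 or both libraries, by list, with black bars at the medians. The neural POU factors have a median of -1.08, above those of neurons (-2.18) and of the neuron-inducing factors (-2.45), and below that of the Pou2f1 cofactors (-0.37).

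Markers of neural cell types were also at lower levels for E14-Sox2TA/WT. All 11 of 11 neuron markers were lower, and their summed level was 3192 TPM for E14 and 532 TPM for E14-Sox2TA/WT. The lead gene Tubb3, a neuronal tubulin, stood at 1722 and 170 TPM. Neural progenitor markers were lower for 4 of 6 that passed (summed level 3114 and 979.6 TPM, most of it Fabp7), and astrocyte and oligodendrocyte markers for 4 of 7 (658 and 228 TPM). Slc1a3, a glial glutamate transporter, stood at 262 and 76.5 TPM and Olig2, the oligodendrocyte lineage factor, at 50.2 and 9.38 TPM. No neuron or progenitor marker was at 0 in either library. The part of these cell types in the POU values was not tested.

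The levels of the members were also expressed against these markers, which again removes the scaling. Per 1000 TPM of summed neuron markers, Pou3f3 stood at 13.97 for E14 and 21.4 for E14-Sox2TA/WT, and Pou3f1 at 4.48 and 19.0. Each of the 9 members was at a higher value for E14-Sox2TA/WT on this scale. The scale depends on Tubb3, which held 1722 of the 3192 TPM for E14 and 170 of the 532 TPM for E14-Sox2TA/WT. Tubb3 was 10.1-fold lower, the largest change among these markers, so a sum without it would give smaller rises. Values without Tubb3 were not computed, so the size of these rises is not settled. Per 1000 TPM of summed progenitor markers, Pou3f3 stood at 14.3 and 11.6, Pou3f2 at 7.90 and 10.5, Pou3f4 at 6.92 and 8.61, and Pou3f1 at 4.59 and 10.3. These values depend on Fabp7. Without Fabp7, an alternative chosen after seeing the data, Pou3f3 stood at 72.3 and 41.9 and Pou3f2 at 39.9 and 37.9. Pou3f4 stood at 34.96 and 31.1, and Pou3f1 at 23.2 and 37.3. Pou3f2 and Pou3f4 thus changed direction on this scale, and Pou3f3 and Pou3f1 did not. With Fabp7 left out, the most abundant of these markers was Sox2, the edited gene, at 246 TPM for E14 and 130 TPM for E14-Sox2TA/WT. This scale therefore overlaps with the comparison with Sox2 given above.

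Markers of cells that are not neural were read too. Of the stratified epithelium markers, 2 of 2 that passed were higher, and the summed level was 51.2 TPM for E14 and 202 TPM for E14-Sox2TA/WT. Krt5 and Krt14, keratins of the basal layer, stood at 25.1 and 127 TPM and at 8.09 and 58.9 TPM. Over the 6 markers that reached a TPM of 1, 3 were at lower and 3 at higher levels. Lor, a gene of the outer layers, stood at 5.23 and 1.31 TPM, Krt1 at 1.63 and 1.32 TPM, and Trp63 at 6.96 and 6.43 TPM. This tissue can express Pou3f1 and Pou2f3. Macrophage markers, which in these tumours can come from the host, were higher for 1 of 6, beside 10.8% of all genes, with a summed level of 798 and 1414 TPM. That 1 was Lyz2, a lysozyme of myeloid cells, at 457 and 943 TPM, and the other 5 were within 2-fold. The part of these cells in the POU values was not tested. The muscle, cartilage and endoderm genes were lower for 1 of 5 and higher for 1 of 5 that passed.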

How the data were processed

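Transcriptomes of 1 E14 and 1 E14-Sox2TA/WT teratoma library were sequenced on a NovaSeq instrument. The authors deposited raw read counts per gene, FPKM and TPM in a single table on mm10. The submitters' processing notes name bcl2fastq 2.20.0, Trimmomatic, HISAT2 2.1.0 and StringTie 2.1.3b. The counting tool's strand setting is not given in the sources used here. A further build named there, hg19, was not used.

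TPM ratios and log2 ratios with 1 added to each TPM were computed with pandas 2.3.3 and scipy 1.17.1 in Python 3.11.15, and sequences were aligned with Biopython 1.88. Genes were called where TPM differed more than 2-fold and reached 10 in either library. Counting intervals (95%) are exact binomial (Clopper-Pearson), or Poisson intervals for a single level. For a gene relative to another gene, the ratio and its interval are those of the conditional (Fisher) odds ratio of the reads. TMM factors came from edgeR 4.0.16 in R 4.3.3. The scripts were tested on simulated data.

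Of 45777 genes, 45679 were matched to RefSeq (GRCm38.p6). Proteins were translated from GENCODE transcripts of the same build. Members and gene lists were chosen with earlier results of these data known. In each list, the gene with the highest TPM and that with the largest log2 ratio are named, besides the POU genes, the nearest annotated neighbours and, for each member that reached a TPM of 10, the 2 genes most like it. Other list genes given were chosen after their values were seen. They are defining markers such as Atoh7, Atoh1 and the hormone genes, Col2a1, Acan, and some genes that went against their list's count. These last are of the Schwann cell, sensory neuron, primed epiblast and epithelium lists. Drgx, in the sensory neuron list, was not analysed here. Some genes that this rule names are not reported here. The 1 gene of a list with no read in both libraries, Pou1f1, was kept.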

Additional observations from a re-analysis of the deposited data

How the results depend on the processing

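No paired analysis was possible because the 2 groups are single libraries, and leaving out a replicate was not possible for the same reason. Over 6 alternatives for each of the 9 members (a pseudocount of 0.1, FPKM, reads scaled by the library total, by TMM factors or by median-of-ratios factors, and centring on all genes), 48 of 54 log2 ratios were negative and the 6 positive ones were those of Pou4f2, so no member changed direction. The median log2 ratio of the members, -1.08, was -0.83 by FPKM, -0.93 by the library total, -0.89 after centring and -0.82 without a TPM filter, where Pou4f2 and Pou4f3 enter. The count of 4 lower members was 3 by FPKM and by the library total, where Pou6f1 was lost, and 4 by TMM and by median-of-ratios factors. With a fold above 3 it was 1 (Pou3f3), and it was 2 where the counting interval of reads scaled by the library total had to lie wholly past 2-fold (Pou3f3 and Pou3f4). At a TPM of at least 1 it was 5, with Pou4f1 added. Without a filter it was 6, and the count of higher members was 1 (Pou4f2) instead of 0. Of all genes tested, the share called lower was 14.3% by FPKM, 14.1% by the library total, 8.77% with a fold above 3 and 12.5% by the interval rule. At a TPM of at least 1, 18.9% of all genes were lower and 19.3% were higher. Without a filter, 13.1% were lower and 20.001% were higher. Over all genes, 63.4% of calls were lower by TPM, 51.1% by FPKM and 50.9% by the library total. Shares within a class by reads instead of TPM differed for 10 of 14 values by more than counting error. Depth limits Pou4f2 and Pou4f3, and no setting covers the spread between tumours.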
